A study of Mus musculus with 9 samples.

Results

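DNA replication and cell division are described here through 51 genes in bone marrow-derived dendritic cells (DCs) of the mouse. The genes are the rows of the deposited count table whose gene symbol is one of 51 names set by function, out of 55471 rows. All 51 had enough counts to be tested. The samples were DCs grown from bone marrow of wild-type (WT) female C57BL/6 mice aged 8 to 20 weeks, cultured with GM-CSF (20 ng/mL) and harvested on day 8 or 9. There were 3 libraries (A, B and C) of unstimulated cells, 3 of cells given LPS (100 ng/mL) and 3 of cells given IFN-β (1000 U/mL), all for 6 h. LPS, a component of the bacterial outer membrane, acts through TLR4. IFN-β is an antiviral cytokine that acts through the type I interferon receptor. RNA came from whole cultures, and a GM-CSF culture holds DC-like and macrophage-like cells together, so each value is an average over both. The labels do not say whether the libraries came from separate mice or cultures, so p-values measure the spread between these libraries.

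A dividing cell passes from a gap phase (G1) into DNA synthesis (S phase) and then, after G2, into mitosis. In G1, D-type cyclins with the kinases Cdk4 and Cdk6 release E2F factors from the retinoblastoma protein. CDK inhibitors such as p21, p27 and p18 hold cyclin-dependent kinases (CDKs) back. E2F factors switch on the genes that load the replicative helicase and make nucleotides. The genes of mitosis come later in the cycle and are switched on largely through a DNA element called the cell cycle genes homology region (CHR), often together with CCAAT boxes. Cultures of bone marrow with GM-CSF begin with dividing precursors, and division slows as the DCs mature.

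The promoters of these genes were searched for such words. RefSeq promoters (build GRCm38.p6) were matched for 41 of the 51 genes, and the 250 bases before the annotated start were searched on both strands. The E2F words searched were TTTCCCGC, TTTGGCGC, TTTCGCGC and TTTGCCGC, the CHR words were TTTGAA and TTCGAA, and the CCAAT box was CCAAT. An E2F word stood in 4 of 15 S phase promoters and in 1 of 15 mitotic promoters, against 1.92% of all 27025 promoters. A CHR word stood in 3 of 15 S phase and 7 of 15 mitotic promoters, against 17.5% of all. CCAAT stood in 11 of 15 S phase and 13 of 15 mitotic promoters, against 34.5% of all. Among the 10627 promoters of genes tested these shares were 3.47%, 13.1% and 36.6%. Some windows hold annotated exon bases of their own gene, among them *Mcm7* (250 bases) and *Cdc6* (81), both with an E2F word. Such a match is a description of the letters and no evidence of binding. The windows below are shown because they hold the word of their group and their genes were among those lower with both stimuli. They are of *Mcm5*, a subunit of the replicative helicase (chr8:75109259-75109508, plus strand), *Kif11*, the motor that separates the spindle poles (chr19:37376132-37376381, plus strand), *Top2a*, the topoisomerase that untangles chromosomes (chr11:99024190-99024439, minus strand), and *Bub1b*, a spindle checkpoint protein (chr2:118597961-118598210, plus strand). Each runs 5′ to 3′ on the strand of its gene, with E2F words of *Mcm5* and CHR words of the other genes in capitals.
Mcm5: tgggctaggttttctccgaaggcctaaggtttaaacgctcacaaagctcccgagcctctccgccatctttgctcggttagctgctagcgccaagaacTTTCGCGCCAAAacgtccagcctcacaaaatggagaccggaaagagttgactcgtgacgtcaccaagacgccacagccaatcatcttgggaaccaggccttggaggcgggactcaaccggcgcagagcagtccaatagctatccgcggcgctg
Kif11: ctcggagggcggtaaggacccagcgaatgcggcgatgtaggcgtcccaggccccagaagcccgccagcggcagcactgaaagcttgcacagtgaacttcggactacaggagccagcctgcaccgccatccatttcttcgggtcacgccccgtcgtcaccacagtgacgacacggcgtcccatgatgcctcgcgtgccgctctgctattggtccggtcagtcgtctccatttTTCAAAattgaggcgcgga
Top2a: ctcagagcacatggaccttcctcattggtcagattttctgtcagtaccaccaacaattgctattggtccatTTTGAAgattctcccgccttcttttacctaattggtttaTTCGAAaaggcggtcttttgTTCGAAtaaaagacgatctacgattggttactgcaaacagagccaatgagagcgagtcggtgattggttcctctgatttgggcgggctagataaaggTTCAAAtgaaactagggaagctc
Bub1b: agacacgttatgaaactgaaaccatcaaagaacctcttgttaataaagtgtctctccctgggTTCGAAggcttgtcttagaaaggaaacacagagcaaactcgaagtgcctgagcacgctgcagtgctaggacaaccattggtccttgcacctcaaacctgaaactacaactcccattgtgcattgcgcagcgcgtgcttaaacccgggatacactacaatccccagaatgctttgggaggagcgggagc
In *Mcm5* the capitals are 2 E2F words that overlap, one on each strand. *Top2a* holds 4 separate CHR words, the last of them 17 bases before the start. *Kif11* has 1 CHR word 13 bases before the start, and that of *Bub1b* lies 182 bases before it.

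Counts assigned to genes numbered 33425803 to 35877346 in the unstimulated libraries, 36115384 to 41015280 with LPS and 36843765 to 43735199 with IFN-β. Values are given as CPM (a gene's share of the counts of its library, scaled to a common total) after TMM scaling, which sets the libraries to a common level across most genes. Its factors were 1.18 to 1.26, 0.783 to 0.841 and 0.977 to 1.02 in the same order. Over all genes tested, 32.8% were higher and 35.4% lower with LPS, and 23.6% higher and 23.3% lower with IFN-β. The counts of markers and of genes by role below are to be read against these shares. Of 8 genes known to respond to LPS or interferon, 8 were higher with LPS and 7 with IFN-β. Markers of the labelled cell type, such as *Itgax*, *Cd74* and *Zbtb46*, were all detected. The summed level of 10 DC markers was 6275 to 7349 CPM unstimulated, 13743 to 15024 CPM with LPS and 7182 to 7865 CPM with IFN-β. Of the 10, 6 were higher under LPS and 1 under IFN-β. Under LPS the largest changes were in the chemokine genes *Ccl22* (log2 fold change 3.36) and *Ccl17* (1.29), then in *Zbtb46* (0.73). The median log2 fold change of the 10 DC markers was 0.34 with LPS. Of 10 macrophage markers, 3 were higher and 4 lower with LPS and 2 were higher with IFN-β, and their sum was 2541 to 3378 CPM unstimulated, 2361 to 3245 CPM with LPS and 3459 to 3935 CPM with IFN-β. Precursors of granulocytes and monocytes divide in such cultures. Of 11 markers of them 6 could be tested, of which 1 was higher with LPS, 2 were higher and 1 was lower with IFN-β, with sums of 13.6 to 16.4 CPM unstimulated, 14.8 to 19.4 CPM with LPS and 12.2 to 15.99 CPM with IFN-β. *Elane* had at most 3 counts in any library. Neutrophil markers summed to 383 to 517 CPM unstimulated, 313 to 464 CPM with LPS and 369 to 501 CPM with IFN-β, with 2 higher and 2 lower of 8 tested under LPS and 1 lower under IFN-β. Mast cell and basophil markers summed to at most 1.22 CPM and B cell markers to at most 0.601 CPM in any library, with no gene passing the test. T and NK cell markers summed to 0.696 to 1.04 CPM unstimulated, 3.33 to 4.21 CPM with LPS and 0.937 to 1.63 CPM with IFN-β. Of 2 tested, *Lck* was higher with both stimuli and *Cd2* was lower with LPS, and *Cd3e*, *Cd3g* and *Ncr1* had at most 3 counts in any library. Of 8 erythroid markers only *Car2* could be tested, which was higher with both stimuli (50.6, 38.4 and 36.3 CPM unstimulated, 107, 92.6 and 80.9 CPM with LPS, 117, 87.2 and 78.8 CPM with IFN-β), while *Hbb-bs*, *Hba-a2* and *Car1* had no count in any library. Where these sums move with a stimulus, their part in the results below was not tested.

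LPS lowered most of the genes of replication and division within 6 h. With LPS, 39 of the 51 genes were lower than in unstimulated DCs, 6 were higher and 6 did not pass the test, whereas 35.4% of all 16260 genes tested were lower and 32.8% higher (68.2% in either direction). The test was edgeR's quasi-likelihood F-test, with p-values adjusted by Benjamini-Hochberg over all genes tested and a threshold of 0.05. The log2 fold change had a median of -1.49 over the 51 genes, with quartiles of -2.34 and -0.40, and of -0.04 over all genes tested. In 40 genes every LPS library lay below every unstimulated one, which held for 37.7% of all genes tested. In 6 genes every LPS library lay above, as it did for 34.6% of all. RNA of bulk cultures cannot tell fewer dividing cells from less RNA in each of them. With scaling by library size alone, 3 genes were higher and 46 lower with LPS, and of all genes 2777 were higher and 9906 lower, against 5334 and 5750 with TMM.

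Most of the genes were lower with IFN-β too, by a smaller amount. IFN-β lowered 34 of the 51 genes and raised 8, and 9 did not pass the test, whereas 23.3% of all genes tested were lower and 23.6% higher (46.9% in either direction). The median log2 fold change was -0.57 over the 51 genes and -0.02 over all genes tested. All 3 IFN-β libraries lay below the unstimulated ones in 34 genes (29.6% of all genes tested) and above them in 9 (28.5%). The number of genes raised fell to 5 without IFN-β library A, and to 4 with scaling by library size alone, under which 2146 of all genes were higher and 7484 lower against 3837 and 3794 with TMM. Both comparisons share the unstimulated libraries, so they are not independent. The difference between the stimuli was therefore tested directly, IFN-β against LPS. In that test 41 of the 51 genes were higher with IFN-β than with LPS and 5 were lower, whereas 25.8% of all genes tested were higher and 23.3% lower (49.1% in either direction). The libraries of the stimuli did not overlap in 41 genes higher (29.6% of all) and 5 lower (27.3%) with IFN-β. Scaling by library size alone left 3 genes lower, and it called 7024 of all genes higher and 1996 lower, against 4194 and 3795 with TMM. The median difference over the 51 genes was 0.99 on the log2 scale.

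**Figure D1:**
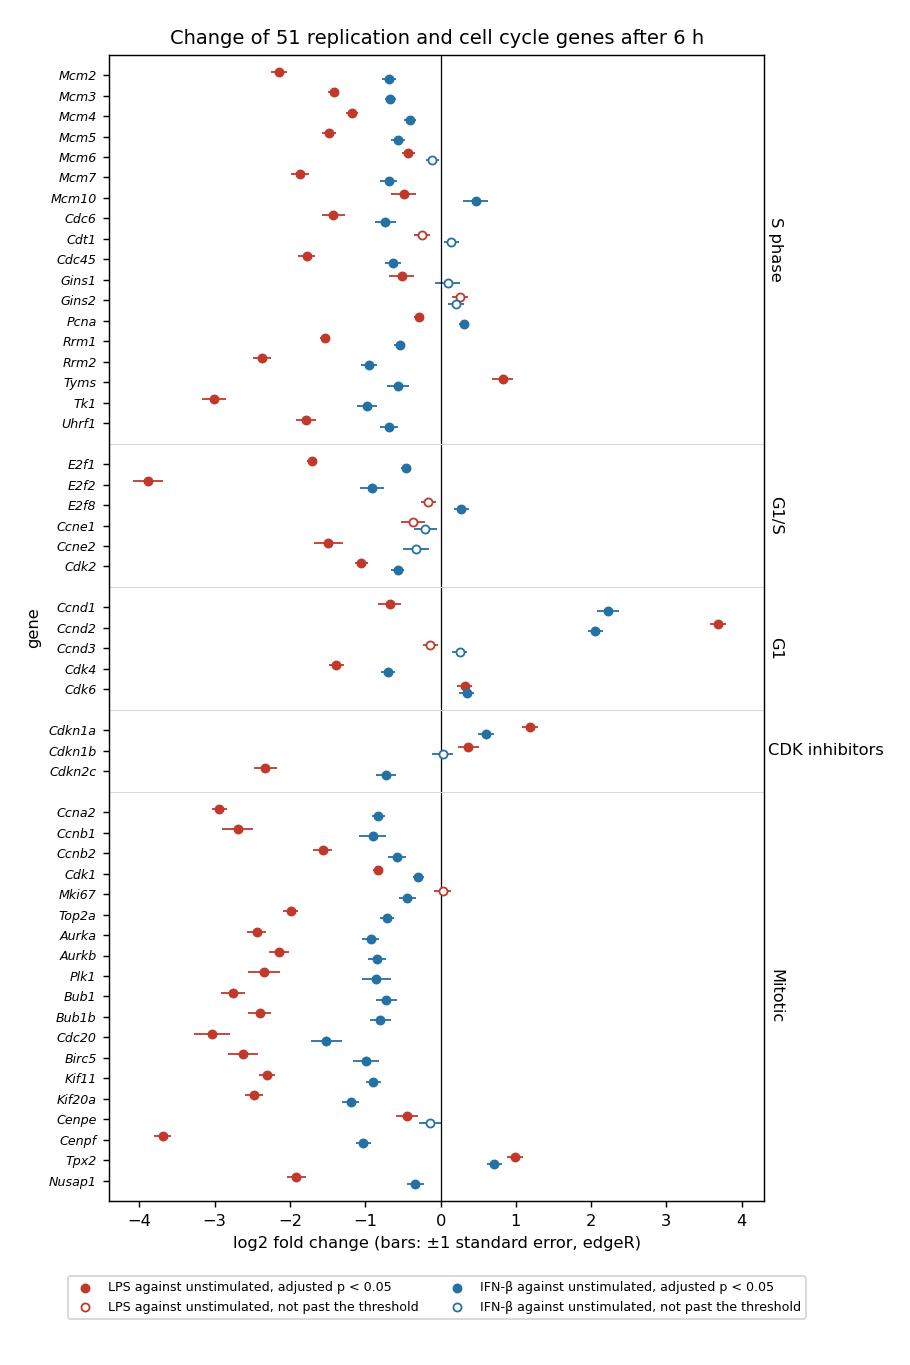
Log2 fold change of each of the 51 genes with LPS (red) and with IFN-β (blue) against unstimulated DCs, on the horizontal axis, with bars of 1 standard error from the edgeR fit over 3 libraries a group; filled points passed an adjusted p of 0.05. Most points of both stimuli lie left of 0 and the LPS points lie farther out, while Ccnd2 with LPS (3.68) and Ccnd1 with IFN-β (2.22) lie far to the right. With scaling by library size alone Gins2, Cdk6, Cdkn1b and Mki67 (LPS) and Cdt1, Gins1, Gins2, E2f8, Ccnd3 and Cdkn1b (IFN-β) move to the left of 0.

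Among the 12 genes that load and activate the replicative helicase, 10 were lower with LPS and 7 with IFN-β, and *Mcm10* was higher with IFN-β. Lower genes made up 35.4% of all genes tested with LPS and 23.3% with IFN-β, and 23.6% were higher with IFN-β. *Mcm2* to *Mcm7* encode the 6 subunits of the helicase ring. *Mcm2* was at 28.3, 30.5 and 34.3 CPM in the unstimulated libraries, 7.11, 6.79 and 7.13 CPM with LPS and 19.5, 20.98 and 17.2 CPM with IFN-β. Its log2 fold change was -2.15 ± 0.10 (adjusted p = 2.59e-08) with LPS and -0.69 ± 0.09 (adjusted p = 0.000187) with IFN-β, where ± is the standard error, and the groups did not overlap. *Mcm7* stood at 29.6, 30.9 and 35.7 CPM in the unstimulated libraries, 8.60, 9.79 and 8.02 CPM with LPS and 21.9, 20.8 and 16.9 CPM with IFN-β. This subunit changed by -1.86 ± 0.12 (adjusted p = 2.43e-07) and -0.69 ± 0.12 (adjusted p = 0.000687) on the log2 scale, although 12.6% of its exon bases are shared with other annotated genes. The other subunits changed by -1.42 (*Mcm3*), -1.18 (*Mcm4*), -1.48 (*Mcm5*) and -0.43 (*Mcm6*) with LPS and by -0.67, -0.40, -0.57 and -0.11 with IFN-β. All of these passed the test except *Mcm6* with IFN-β (adjusted p = 0.335), and the estimates for the 6 subunits of one ring ran from 1.35-fold lower for *Mcm6* to 4.43-fold lower for *Mcm2* with LPS. With scaling by library size alone *Mcm6* was lower with IFN-β too (-0.42, adjusted p = 0.00364).

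*Cdc6*, the loading factor that brings the ring to origins, fell with both stimuli. It was measured at 8.94, 10.1 and 11.9 CPM in the unstimulated libraries, 4.42, 3.15 and 3.99 CPM with LPS and 6.58, 5.60 and 6.44 CPM with IFN-β. The log2 fold change of *Cdc6* was -1.42 ± 0.15 (adjusted p = 8.66e-06) with LPS and -0.73 ± 0.14 (adjusted p = 0.00172) with IFN-β. Its partner *Cdt1* did not pass the test with LPS (-0.25 ± 0.11, adjusted p = 0.0540) or with IFN-β (0.14 ± 0.10, adjusted p = 0.280). With the library letter (A, B or C) as a block, *Cdt1* was lower with LPS (adjusted p = 0.00789), as it was without LPS library A (0.0224), IFN-β library A (0.0337) or IFN-β library C (0.0438). It was called lower as well with scaling by library size alone (1.26e-05), upper-quartile factors (0.00867), no filter (0.0480), at least 10 counts in every library (0.0455) and the fit of the compared groups alone (0.0386). *Cdc45*, which joins the ring to make the active helicase, changed by -1.78 with LPS and -0.63 with IFN-β, both past the threshold. Of the GINS complex, its other partner, *Gins1* changed by -0.52 ± 0.17 (adjusted p = 0.0201) with LPS, a call lost without unstimulated library B (adjusted p = 0.0599) or C (0.0575) and without LPS library B (0.0540) or C (0.0768). *Gins2* did not pass with either stimulus, was higher with LPS with the letter block (adjusted p = 0.0419), with DESeq2 (0.0311) and without unstimulated library C (0.0262) or LPS library C (0.0124), and turned to -0.33 with scaling by library size alone. It also shares 67.3% of its exon bases with *Gse1* on the opposite strand, and without strand the reads of such a pair cannot be told apart.

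The 6 genes of the sliding clamp, nucleotide supply and chromatin copying split into 5 lower and 1 higher under each stimulus, with a different gene as the exception. The shares over all genes tested were 35.4% lower and 32.8% higher with LPS, and 23.3% and 23.6% with IFN-β. *Tk1* (ENSMUSG00000025574, chr11:117815526-117826092 in GRCm38), thymidine kinase of the salvage pathway, showed the largest decrease of the S phase genes. It was at 5.70, 6.83 and 7.60 CPM in the unstimulated libraries, 0.885, 0.845 and 0.768 CPM with LPS and 3.26, 3.61 and 3.34 CPM with IFN-β. With LPS only 25, 29 and 25 reads were counted. *Tk1* changed on the log2 scale by -3.01 ± 0.16 (adjusted p = 5.61e-08) with LPS and -0.98 ± 0.13 (adjusted p = 0.000199) with IFN-β, and the IFN-β libraries lay between the other groups with no overlap. *Rrm2*, the small subunit of ribonucleotide reductase, was at 26.3, 28.3 and 33.8 CPM in the unstimulated libraries, 6.26, 5.01 and 5.90 CPM with LPS and 14.2, 15.6 and 15.99 CPM with IFN-β. It changed by -2.37 ± 0.12 (adjusted p = 4.24e-08) and by -0.95 ± 0.11 (adjusted p = 6.68e-05). The large subunit *Rrm1* changed by -1.53 and -0.54, and *Uhrf1*, which carries DNA methylation through replication, by -1.79 and -0.68, with LPS and IFN-β respectively, all past the threshold.

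*Tyms* (ENSMUSG00000025747, chr5:30058202-30073617), thymidylate synthase of the same nucleotide pathway, went the other way with LPS. It was at 10.6, 13.1 and 15.1 CPM in the unstimulated libraries, 20.3, 24.5 and 23.96 CPM with LPS and 7.28, 9.32 and 9.61 CPM with IFN-β. All LPS libraries were above and all IFN-β libraries below the unstimulated ones. The log2 fold change was 0.82 ± 0.14 (adjusted p = 0.000414) with LPS and -0.57 ± 0.15 (adjusted p = 0.00881) with IFN-β, and IFN-β against LPS gave -1.39 ± 0.15 (adjusted p = 2.36e-05). The LPS rise was 0.24 and did not pass with scaling by library size alone (adjusted p = 0.207). *Pcna* (ENSMUSG00000027342, chr2:132249162-132253314), the sliding clamp of DNA polymerases, showed the reverse pattern. It was at 106, 103 and 99.3 CPM in the unstimulated libraries, 90.8, 83.3 and 79.4 CPM with LPS and 132, 122 and 129 CPM with IFN-β, with no overlap between the groups. It changed by -0.29 ± 0.07 (adjusted p = 0.00301) with LPS and 0.32 ± 0.07 (adjusted p = 0.00293) with IFN-β, and by 0.60 ± 0.07 (adjusted p = 3.44e-05) between them. Scaling by library size alone left the IFN-β rise at 0.01, past no threshold (adjusted p = 0.902). *Mcm10*, which helps start the helicase, was at 10.97, 11.05 and 12.4 CPM in the unstimulated libraries, 10.9, 7.69 and 6.08 CPM with LPS and 16.2, 16.6 and 14.8 CPM with IFN-β. Its change was -0.49 ± 0.17 (adjusted p = 0.0242) with LPS and 0.47 ± 0.16 (adjusted p = 0.0368) with IFN-β. The LPS call was lost without unstimulated library C (adjusted p = 0.0644) and without LPS library B (0.0761) or C (0.0767). The IFN-β call was lost without unstimulated library A (0.0932) or B (0.106), LPS library B (0.0515), or IFN-β library A (0.0862) or B (0.0944), and with scaling by library size alone (0.397) or upper-quartile factors (0.0656). The direct difference between the stimuli, 0.95 ± 0.17 (adjusted p = 0.000821), kept its call when any library was left out.

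**Figure D2:**
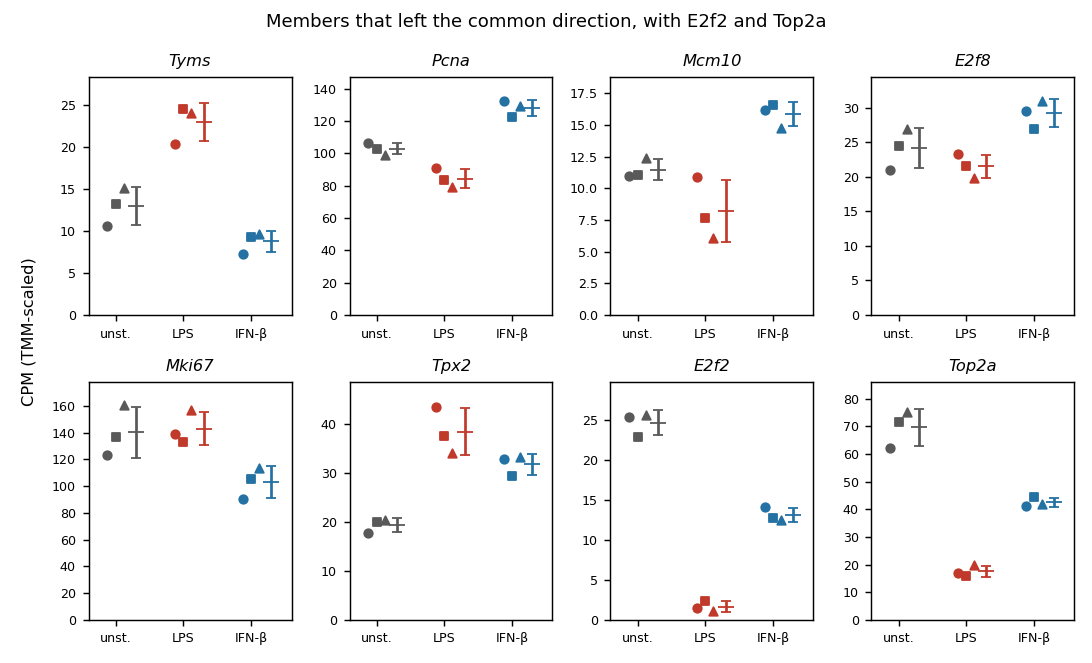
CPM (TMM-scaled, linear axis from 0) of 8 genes in each of the 9 libraries (circle A, square B, triangle C), with the mean and 1 SD of each group of 3. Tyms is highest with LPS and lowest with IFN-β, Pcna and Mcm10 are highest with IFN-β, Tpx2 is lowest unstimulated, and E2f2 and Top2a show the common order of unstimulated, IFN-β, LPS from high to low. Mki67 overlaps between unstimulated and LPS under TMM and is lower with LPS with scaling by library size alone.

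At the entry to S phase, 4 of the 6 genes were lower with LPS and none higher, and 3 were lower and 1 higher with IFN-β. Among all genes tested 35.4% were lower and 32.8% higher with LPS, and 23.3% and 23.6% with IFN-β. *E2f2* (ENSMUSG00000018983, chr4:136172394-136196057), an activating E2F factor, showed the largest decrease of the 51 genes with LPS. It was at 25.4, 22.8 and 25.6 CPM in the unstimulated libraries, 1.45, 2.39 and 1.11 CPM with LPS and 14.1, 12.7 and 12.4 CPM with IFN-β, so the LPS libraries were 14.8-fold below the unstimulated ones in the fit. The log2 fold change was -3.89 ± 0.20 (adjusted p = 4.44e-08) with LPS and -0.91 ± 0.16 (adjusted p = 0.000963) with IFN-β. *E2f1*, its relative, was at 26.02, 25.9 and 27.03 CPM in the unstimulated libraries, 7.85, 8.04 and 8.33 CPM with LPS and 19.8, 19.3 and 18.6 CPM with IFN-β. It changed by -1.70 ± 0.07 (adjusted p = 1.03e-08) and by -0.46 ± 0.06 (adjusted p = 0.000235). *E2f8*, a repressor within the family, was at 21.03, 24.4 and 26.8 CPM in the unstimulated libraries, 23.2, 21.5 and 19.8 CPM with LPS and 29.5, 26.95 and 30.96 CPM with IFN-β. Its log2 fold change was -0.16 ± 0.10 (adjusted p = 0.170) with LPS and 0.27 ± 0.10 (adjusted p = 0.0444) with IFN-β. Without unstimulated library A it was lower with LPS (adjusted p = 0.0354), as it was with scaling by library size alone (5.93e-05) or upper-quartile factors (0.0444). The IFN-β rise in *E2f8* turned to -0.04 with scaling by library size alone and was lost with upper-quartile factors (adjusted p = 0.146) and in the fit of the compared groups alone (0.0661). It was also lost without unstimulated library A (0.158) or B (0.0976), LPS library B (0.0644), or IFN-β library A (0.104) or C (0.133).

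Cyclin E with Cdk2 drives the start of replication. *Ccne1* was at 12.8, 15.4 and 14.98 CPM in the unstimulated libraries, 13.2, 12.2 and 8.17 CPM with LPS and 12.8, 11.8 and 13.04 CPM with IFN-β, and its groups overlapped. Its change was -0.37 ± 0.15 (adjusted p = 0.0556) with LPS and -0.20 ± 0.15 (adjusted p = 0.305) with IFN-β, and with the letter block it was lower with LPS (adjusted p = 0.0235), as it was without unstimulated library A (0.0369) or LPS library A (0.0196). The same call came with scaling by library size alone (0.000128), upper-quartile factors (0.0185), no filter (0.00978) and at least 10 counts in every library (0.0498). *Ccne2* changed by -1.49 ± 0.19 (adjusted p = 4.43e-05) with LPS and by -0.33 ± 0.18 (adjusted p = 0.160) with IFN-β, and 17.4% of its exon bases lie in *Ints8* on the opposite strand. With scaling by library size alone *Ccne1* (-0.51, adjusted p = 0.0120) and *Ccne2* (-0.64, adjusted p = 0.00968) were lower with IFN-β. *Cdk2* was at 30.6, 29.5 and 34.1 CPM in the unstimulated libraries, 14.2, 16.9 and 14.3 CPM with LPS and 20.99, 22.1 and 20.5 CPM with IFN-β. This kinase fell with both stimuli, with log2 fold changes of -1.05 ± 0.09 (adjusted p = 1.67e-06) with LPS and -0.57 ± 0.09 (adjusted p = 0.000413) with IFN-β.

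Of the 5 D-type cyclins and partner kinases, 2 were higher and 2 lower with LPS, and 3 were higher and 1 lower with IFN-β. With LPS these counts are near the shares over all genes (32.8% higher, 35.4% lower), and with IFN-β the shares were 23.6% and 23.3%. *Ccnd2* (ENSMUSG00000000184, chr6:127125162-127152193), cyclin D2, rose the most of the 51 genes with LPS. It was at 342, 374 and 299 CPM in the unstimulated libraries, 4338, 4375 and 4322 CPM with LPS and 1426, 1368 and 1424 CPM with IFN-β. That is 12.8-fold with LPS (3.68 ± 0.11, adjusted p = 1.75e-09) and 4.16-fold with IFN-β (2.05 ± 0.10, adjusted p = 5.66e-07), and the groups lay far apart. *Ccnd2* shares 7.86% of its exon bases with genes on the opposite strand. *Ccnd1* (ENSMUSG00000070348, chr7:144929931-144939925), cyclin D1, responded in opposite directions. It was at 66.3, 71.2 and 48.5 CPM in the unstimulated libraries, 45.01, 39.3 and 32.1 CPM with LPS and 307, 286 and 276 CPM with IFN-β. Cyclin D1 RNA changed by -0.68 ± 0.15 (adjusted p = 0.00193) with LPS and 2.22 ± 0.15 (adjusted p = 2.51e-06) with IFN-β, and IFN-β against LPS differed by 2.90 ± 0.16 (adjusted p = 2.00e-07), or 7.47-fold. Some of its reads could come from *LTO1*, which shares 23.4% of its exon bases on the opposite strand. *Ccnd3* did not pass with LPS (-0.13 ± 0.10, adjusted p = 0.271) or IFN-β (0.25 ± 0.10, adjusted p = 0.0672), and was higher with IFN-β with the letter block (adjusted p = 0.0192), with no filter (0.0400) and without IFN-β library B (0.0217). With scaling by library size alone it was lower with LPS (-0.72, adjusted p = 7.64e-05).

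The kinases of the D-type cyclins parted. *Cdk4* was at 52.1, 56.1 and 64.2 CPM in the unstimulated libraries, 21.4, 22.3 and 22.3 CPM with LPS and 31.1, 36.6 and 38.9 CPM with IFN-β. It fell in all libraries of both stimuli, with log2 fold changes of -1.39 ± 0.10 (adjusted p = 4.83e-07) with LPS and -0.70 ± 0.10 (adjusted p = 0.000220) with IFN-β, with 19.7% of its exon bases shared with *Tspan31*. *Cdk6* was higher with LPS (0.32 ± 0.10, adjusted p = 0.0150) and with IFN-β (0.34 ± 0.10, adjusted p = 0.0158), but with scaling by library size alone it turned to -0.26 with LPS and was 0.04 with IFN-β. The LPS call was lost without unstimulated library C (adjusted p = 0.0507) or LPS library A (0.0555), and the IFN-β call without unstimulated library C (0.0512) or IFN-β library A (0.0636). Summed over these 5 genes, RNA was at 674% of the unstimulated level with LPS and 292% with IFN-β. The share of *Ccnd2* in that sum was 48.7% unstimulated, 92.9% with LPS and 69.4% with IFN-β.

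The 3 CDK inhibitors did not share 1 pattern of calls. *Cdkn1a* (ENSMUSG00000023067, chr17:29090976-29100727), which encodes p21, was at 346, 355 and 274 CPM in the unstimulated libraries, 752, 788 and 675 CPM with LPS and 503, 508 and 466 CPM with IFN-β. It rose by 1.18 ± 0.11 (adjusted p = 2.75e-06) with LPS and 0.60 ± 0.11 (adjusted p = 0.000976) with IFN-β on the log2 scale, with no overlap between the groups. Per length of exon it had the highest unstimulated level of the 51 genes, 91.4 RPKM (CPM divided by the exon length in kilobases), followed by *Pcna* at 42.9 and *Ccnd2* at 35.96. *Cdkn1b*, which encodes p27, was at 32.4, 27.2 and 25.9 CPM in the unstimulated libraries, 39.9, 33.2 and 37.3 CPM with LPS and 36.00, 26.1 and 24.8 CPM with IFN-β. It was higher with LPS (0.37 ± 0.14, adjusted p = 0.0390), a call that turned to -0.21 with scaling by library size alone and was lost with upper-quartile factors (adjusted p = 0.0803). It was also lost without unstimulated library B (0.115) or C (0.123) or LPS library A (0.116) or C (0.0849). With IFN-β it overlapped with the unstimulated group (0.03 ± 0.14, adjusted p = 0.896), and with the letter block it was lower with IFN-β than with LPS (adjusted p = 0.00110), as it was with DESeq2 (0.0391), with no filter (0.0207) and without IFN-β library A (0.00371). *Cdkn2c*, which encodes p18 and is itself switched on in dividing cells by E2F factors, was at 4.61, 5.68 and 4.72 CPM in the unstimulated libraries, 0.885, 0.991 and 1.11 CPM with LPS and 3.16, 3.08 and 2.82 CPM with IFN-β. It fell with both stimuli, with log2 fold changes of -2.32 ± 0.16 (adjusted p = 2.89e-07) with LPS and -0.73 ± 0.14 (adjusted p = 0.00141) with IFN-β.

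**Figure D3:**
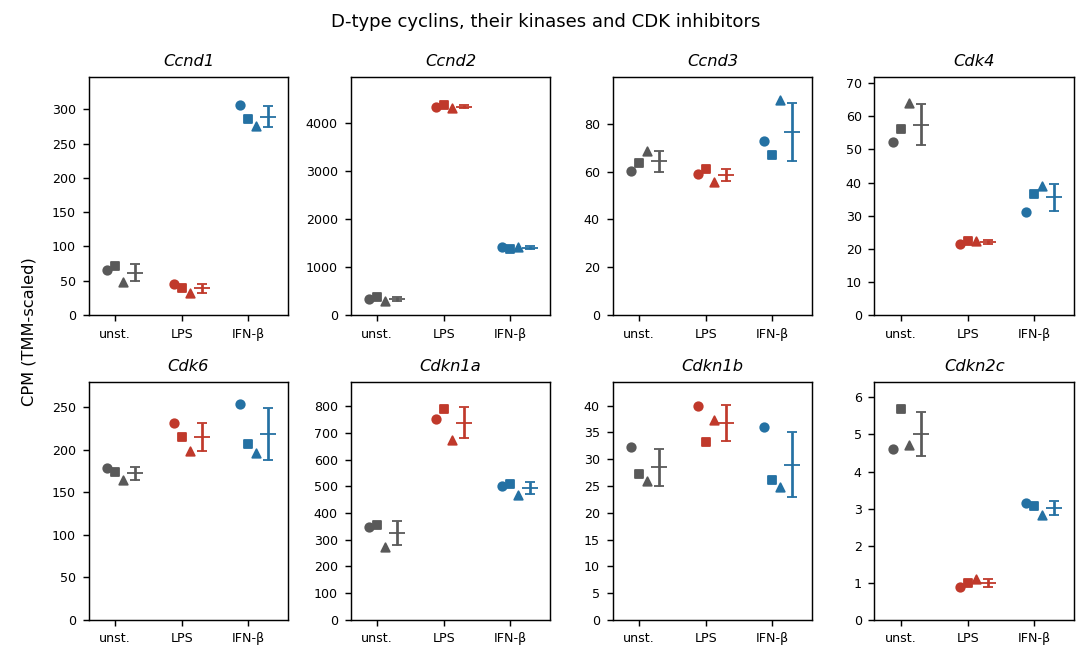
CPM (TMM-scaled, linear axis from 0, own scale in each panel) of the 5 G1 genes and 3 CDK inhibitors in each of the 9 libraries (circle A, square B, triangle C), with the mean and 1 SD of each group of 3. Ccnd2 lies between 4322 and 4375 CPM with LPS against 299 to 374 unstimulated, Ccnd1 is high with IFN-β alone, and Cdk4 and Cdkn2c fall in the order unstimulated, IFN-β, LPS. The LPS rises of Cdk6 and Cdkn1b turn with scaling by library size alone.

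Mitotic genes had the lowest median change of the roles with either stimulus. Of 19, 17 were lower and 1 higher with LPS, and again 17 were lower and 1 higher with IFN-β. All genes tested were lower in 35.4% and higher in 32.8% with LPS, and in 23.3% and 23.6% with IFN-β. The cyclins that activate Cdk1 were all lower with both stimuli. *Ccna2*, cyclin A2, was at 14.4, 15.5 and 16.2 CPM in the unstimulated libraries, 1.84, 2.07 and 2.09 CPM with LPS and 8.95, 8.98 and 8.09 CPM with IFN-β. Its log2 fold change was -2.94 ± 0.10 (adjusted p = 4.82e-09) with LPS and -0.83 ± 0.09 (adjusted p = 3.49e-05) with IFN-β, with 12.5% of its exon bases shared with *Exosc9*. *Ccnb1*, cyclin B1, was at 7.30, 8.44 and 8.26 CPM in the unstimulated libraries, 0.814, 1.19 and 1.66 CPM with LPS and 4.40, 4.62 and 3.81 CPM with IFN-β. It changed by -2.70 ± 0.20 (adjusted p = 6.55e-07) and -0.90 ± 0.17 (adjusted p = 0.00174). *Ccnb2* changed by -1.57 and -0.58, and *Cdk1* itself by -0.83 and -0.30, all past the threshold. The kinase thus fell 1.78-fold with LPS where its cyclin A2 fell 7.67-fold.

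The 7 kinases and checkpoint genes moved one way. All 7 were lower with each stimulus, against 35.4% of all genes tested with LPS and 23.3% with IFN-β. The log2 fold changes ranged from -3.04 to -2.14 with LPS and from -1.52 to -0.72 with IFN-β. Their summed level was 78.2 ± 5.27 CPM unstimulated, 14.2 ± 1.11 CPM with LPS and 42.6 ± 4.70 CPM with IFN-β (SD, n = 3 each). *Cdc20*, the activator of the anaphase-promoting complex, was at 5.70, 6.06 and 5.75 CPM in the unstimulated libraries, 0.389, 0.757 and 0.952 CPM with LPS and 1.94, 2.39 and 1.77 CPM with IFN-β. With LPS that is 11, 26 and 31 reads. It fell 8.20-fold with LPS (-3.04 ± 0.24, adjusted p = 9.51e-07) and 2.87-fold with IFN-β (-1.52 ± 0.21, adjusted p = 0.000187), the largest IFN-β decrease of the 51 genes. *Bub1*, a checkpoint kinase, was at 8.92, 9.68 and 10.3 CPM in the unstimulated libraries, 1.45, 1.08 and 1.75 CPM with LPS and 5.81, 6.43 and 5.33 CPM with IFN-β. The checkpoint kinase changed by -2.76 ± 0.16 (adjusted p = 1.14e-07) with LPS and -0.72 ± 0.14 (adjusted p = 0.00174) with IFN-β. *Birc5*, which encodes survivin of the chromosomal passenger complex, was at 7.30, 8.58 and 8.39 CPM in the unstimulated libraries, 0.885, 1.69 and 1.32 CPM with LPS and 3.54, 4.38 and 4.31 CPM with IFN-β. It changed by -2.62 ± 0.20 (adjusted p = 6.63e-07) and -0.99 ± 0.17 (adjusted p = 0.000892). The kinases *Aurka*, *Aurkb* and *Plk1* changed by -2.44, -2.14 and -2.35 with LPS and by -0.93, -0.84 and -0.85 with IFN-β. *Bub1b*, whose promoter is shown above, changed by -2.40 and -0.80.

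Of the 6 genes of spindle motors and kinetochores, 5 were lower and 1 higher with LPS, and 4 were lower and 1 higher with IFN-β. Across all genes tested the shares were 35.4% and 32.8% with LPS, and 23.3% and 23.6% with IFN-β. *Cenpf* (ENSMUSG00000026605, chr1:189640606-189688086), a kinetochore protein, was at 13.3, 14.4 and 12.4 CPM in the unstimulated libraries, 1.17, 1.02 and 0.922 CPM with LPS and 6.53, 6.67 and 6.52 CPM with IFN-β. It fell 12.9-fold with LPS (-3.69 ± 0.12, adjusted p = 3.38e-09) and 2.03-fold with IFN-β (-1.02 ± 0.09, adjusted p = 1.47e-05). *Kif20a*, a motor of cytokinesis, was at 14.4, 14.5 and 14.9 CPM in the unstimulated libraries, 2.34, 2.59 and 2.92 CPM with LPS and 6.46, 7.14 and 5.52 CPM with IFN-β. It changed by -2.48 ± 0.12 (adjusted p = 3.20e-08) and -1.20 ± 0.11 (adjusted p = 1.36e-05), and 29.3% of its exon bases lie in *Cdc23* on the opposite strand. *Kif11*, which holds a CHR word close to its start, changed by -2.30 with LPS and -0.89 with IFN-β. *Nusap1*, a spindle protein, changed by -1.91 with LPS and by -0.34 ± 0.11 (adjusted p = 0.0292) with IFN-β. That IFN-β call was lost without unstimulated library C (adjusted p = 0.120) and without IFN-β library A (0.0613), B (0.0982) or C (0.0504).

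*Cenpe*, a kinetochore motor, was at 21.8, 25.3 and 25.02 CPM in the unstimulated libraries, 21.8, 15.1 and 16.01 CPM with LPS and 25.04, 21.9 and 18.4 CPM with IFN-β. Its change was -0.45 ± 0.15 (adjusted p = 0.0193) with LPS and -0.14 ± 0.15 (adjusted p = 0.461) with IFN-β. With scaling by library size alone it was lower with IFN-β (-0.45, adjusted p = 0.0166). The LPS call was lost without unstimulated library B (adjusted p = 0.0557) or LPS library B (0.0797) or C (0.0697), and with the letter block *Cenpe* was higher with IFN-β than with LPS (adjusted p = 0.0390), as it was with scaling by library size alone (0.00447), with no filter (0.0237) and without LPS library A (0.0130) or IFN-β library C (0.0498). *Tpx2* (ENSMUSG00000027469, chr2:152847964-152895321), a spindle assembly factor that activates the kinase Aurora A, was the mitotic gene that rose. It was at 17.7, 19.99 and 20.5 CPM in the unstimulated libraries, 43.7, 37.7 and 34.2 CPM with LPS and 32.9, 29.4 and 33.4 CPM with IFN-β, with every stimulated library above every unstimulated one. The rise was 0.99 ± 0.10 (adjusted p = 6.94e-06) with LPS and 0.72 ± 0.10 (adjusted p = 0.000225) with IFN-β, while *Aurka*, its partner, fell 5.43-fold and 1.90-fold. *Tpx2* shares no exon bases with another annotated gene. It was lower with IFN-β than with LPS (-0.27 ± 0.10, adjusted p = 0.0416), a call lost when any of 6 libraries was left out (adjusted p from 0.0555 to 0.152), namely unstimulated B, LPS A or B, or IFN-β A, B or C. It was lost too in the fit of the compared groups alone (0.0660), and turned to 0.0059 with scaling by library size alone.

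The proliferation markers *Mki67* and *Top2a* differed in the LPS call. *Mki67* (ENSMUSG00000031004, chr7:135689784-135716361), which encodes Ki-67, was at 123, 137 and 161 CPM in the unstimulated libraries, 139, 133 and 157 CPM with LPS and 90.6, 105 and 114 CPM with IFN-β. Its LPS and unstimulated libraries overlapped, whereas the mitotic genes that fell with LPS changed by -0.45 to -3.69. The log2 fold change of *Mki67* with LPS was 0.03 ± 0.11 (adjusted p = 0.848). With scaling by library size alone it turned to -0.56 (adjusted p = 0.00193). With IFN-β it was lower (-0.44 ± 0.11, adjusted p = 0.00856), and lower than with LPS (-0.47 ± 0.11, adjusted p = 0.00591), the latter call lost with scaling by library size alone (adjusted p = 0.221). *Top2a*, with 4 CHR words before its start, was at 62.1, 71.7 and 75.2 CPM in the unstimulated libraries, 16.8, 16.02 and 19.7 CPM with LPS and 41.3, 44.3 and 41.98 CPM with IFN-β. It was lower with both, with log2 fold changes of -1.99 ± 0.10 (adjusted p = 3.28e-08) with LPS and -0.71 ± 0.09 (adjusted p = 0.000138) with IFN-β. Ki-67 is the most used marker of dividing cells, and per length of exon its RNA was the most abundant of the mitotic genes in every group, at 13.9 RPKM unstimulated, 14.2 with LPS and 10.3 with IFN-β.

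S phase and mitotic genes were set side by side. With LPS the median log2 fold change was -1.42 over 18 S phase genes and -2.35 over 19 mitotic genes, a gap of 0.92. With IFN-β it was -0.57 and -0.83, a gap of 0.26 that became 0.16 without unstimulated library A. Between the stimuli it was 0.84 and 1.49. Of the S phase genes 11 were more than 2-fold lower with LPS, and of the mitotic genes 15, as were 17.6% of all genes tested. The same was seen library by library. Relative to the unstimulated mean of log2(CPM + 0.5) per gene, the median S phase gene stood at -1.26, -1.42 and -1.31 in LPS libraries A, B and C, and the median mitotic gene at -2.02, -2.08 and -2.07. With IFN-β these values were -0.51, -0.53 and -0.61 for S phase and -0.79, -0.64 and -0.80 for mitosis. The distance of S phase above mitotic genes was -0.02, -0.07 and 0.09 in the unstimulated libraries, 0.77, 0.67 and 0.77 with LPS and 0.28, 0.11 and 0.18 with IFN-β. The LPS libraries had a wider distance than any other library, and each IFN-β library a wider one than each unstimulated library. Genes of 1 library are not replicates, so no p-value is given for this gap. With LPS it was 0.92 with scaling by library size alone too, which shifts all genes nearly alike and so keeps such a gap by construction. Without the genes that share at least 5% of their exon bases with another gene it was 0.80.

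**Figure D4:**
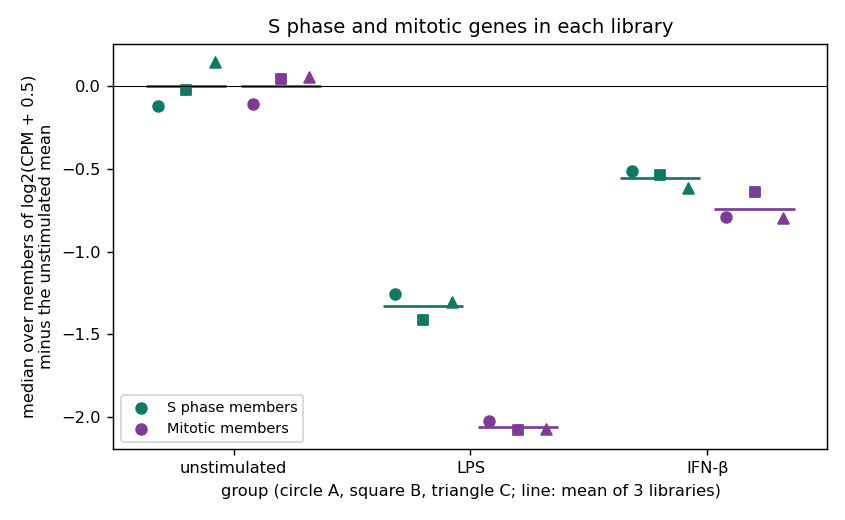
Median over the 18 S phase genes (green) and 19 mitotic genes (purple) of log2(CPM + 0.5) minus each gene's unstimulated mean, for each library (circle A, square B, triangle C), with the line at the mean of 3 libraries. Both sets lie near 0 unstimulated, near -0.5 and -0.8 with IFN-β and farther down with LPS, where the mitotic points lie below the S phase points in every library.

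Levels were also compared per length of exon. The median S phase gene was at 4.90 RPKM unstimulated, 2.35 with LPS and 3.99 with IFN-β, and the median mitotic gene at 3.37, 0.695 and 2.07 RPKM. Summed CPM, in which abundant genes weigh more, gave another order with LPS. The S phase sum with LPS was 52.5% and the mitotic sum 58.96% of the unstimulated mean, so by the sum the mitotic genes fell less. The share of *Mki67* in the mitotic sum was 32.3% unstimulated, 55.8% with LPS and 33.9% with IFN-β. With IFN-β the sums were 81.99% and 70.01%.

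Other genes of the same pathways were counted from lists written by function, with earlier results of these data known. Of 45 other S phase genes, 36 were lower and 4 higher with LPS, and 29 were lower and 6 higher with IFN-β, with median log2 fold changes of -1.10 and -0.39. Of 45 other mitotic genes, 38 were lower and 4 higher with LPS, and 41 were lower and 1 higher with IFN-β, with medians of -2.15 and -0.69. Over all genes tested 35.4% were lower and 32.8% higher with LPS, and 23.3% and 23.6% with IFN-β. The mitotic median was below the S phase median in these genes too. The lists come from the same libraries and were not blind to them, so they are no independent test of the gap. The S phase genes with the largest LPS changes were *Dna2*, a nuclease-helicase of lagging strand synthesis (-2.55 ± 0.12, adjusted p = 3.01e-08), *Clspn*, which encodes claspin of the replication checkpoint (-2.54 ± 0.14, adjusted p = 8.40e-08), and the exonuclease *Exo1* (-2.54 ± 0.18, adjusted p = 4.25e-07). With IFN-β they were *Timeless*, *Dut*, the dUTPase that keeps uracil out of DNA (-1.22 ± 0.17, adjusted p = 0.000220), and *Exo1* (-1.16 ± 0.16, adjusted p = 0.000182). *Timeless*, of the replication fork protection complex, rose. It was at 14.7, 14.3 and 13.9 CPM in the unstimulated libraries, 88.03, 78.7 and 71.1 CPM with LPS and 56.1, 45.7 and 56.5 CPM with IFN-β. The change was 2.47 ± 0.10 (adjusted p = 1.45e-08) with LPS and 1.88 ± 0.10 (adjusted p = 9.37e-07) with IFN-β.

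Among the other mitotic genes the largest LPS changes were in *Cdc25b*, a phosphatase that activates Cdk1, the spindle pole gene *Aspm* (-3.34 ± 0.15, adjusted p = 2.34e-08) and the motor *Kif18b* (-3.09 ± 0.17, adjusted p = 7.43e-08). *Cdc25b* was at 13.2, 11.6 and 10.9 CPM in the unstimulated libraries, 0.778, 0.641 and 0.584 CPM with LPS and 8.01, 7.54 and 6.32 CPM with IFN-β. Its change was -4.16 ± 0.16 (adjusted p = 7.85e-09) with LPS and -0.70 ± 0.12 (adjusted p = 0.000737) with IFN-β. The largest IFN-β changes were in *Pttg1*, *Kif18b* (-1.44 ± 0.15, adjusted p = 2.63e-05) and *Cdc25c* (-1.31 ± 0.20, adjusted p = 0.000431). *Pttg1*, which encodes securin, the inhibitor of chromosome separation, was the single gene of its list that rose with IFN-β. It was at 14.04, 11.5 and 10.7 CPM in the unstimulated libraries, 95.9, 83.1 and 73.4 CPM with LPS and 56.5, 50.1 and 53.2 CPM with IFN-β. It changed by 2.80 ± 0.12 (adjusted p = 1.84e-08) with LPS and 2.14 ± 0.12 (adjusted p = 1.06e-06) with IFN-β.

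Of 37 genes of cell cycle control outside these phases, 13 were higher and 18 lower with LPS, and 9 were higher and 13 lower with IFN-β. The counts of higher genes are near the shares over all genes, and the counts of lower genes are above them. These shares were 32.8% higher and 35.4% lower with LPS and 23.6% and 23.3% with IFN-β. *Myc*, the growth factor-driven transcription factor, was at 33.7, 37.2 and 43.9 CPM in the unstimulated libraries, 3.61, 4.66 and 4.76 CPM with LPS and 19.6, 27.7 and 27.2 CPM with IFN-β. It changed by -3.13 ± 0.17 (adjusted p = 6.24e-08) and -0.63 ± 0.15 (adjusted p = 0.00534). *Max*, its binding partner, rose by 1.85 ± 0.11 (adjusted p = 9.37e-08) with LPS and 1.28 ± 0.10 (adjusted p = 6.81e-06) with IFN-β. *Gadd45b*, a stress gene, rose by 3.45 ± 0.18 (adjusted p = 4.66e-08) and 1.19 ± 0.17 (adjusted p = 0.000219), the checkpoint kinase *Chek2* changed by -2.85 ± 0.13 (adjusted p = 2.10e-08) with LPS, and the repressor *E2f6* by -1.14 ± 0.13 (adjusted p = 5.72e-05) with IFN-β. *Cdkn1a* is a target of p53, so 12 further p53 target genes were counted. With LPS 3 were higher and 8 lower, and with IFN-β 2 were higher and 5 lower. The counts of higher genes are near or below those same shares, and the counts of lower genes are above them. The summed level of the 12 genes was 681 to 806 CPM unstimulated, 1095 to 1261 CPM with LPS and 896 to 979 CPM with IFN-β. *Plk2*, a kinase, had log2 fold changes of 1.93 ± 0.11 (adjusted p = 1.22e-07) with LPS and 1.26 ± 0.11 (adjusted p = 1.22e-05) with IFN-β. *Phlda3* had log2 fold changes of -2.08 ± 0.21 (adjusted p = 7.24e-06) and -0.93 ± 0.20 (adjusted p = 0.00300). *Eda2r* rose with LPS (1.87 ± 0.17, adjusted p = 2.89e-06), and *Tnfrsf10b* was lower with IFN-β (-1.01 ± 0.19, adjusted p = 0.00133).

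**Figure D5:**
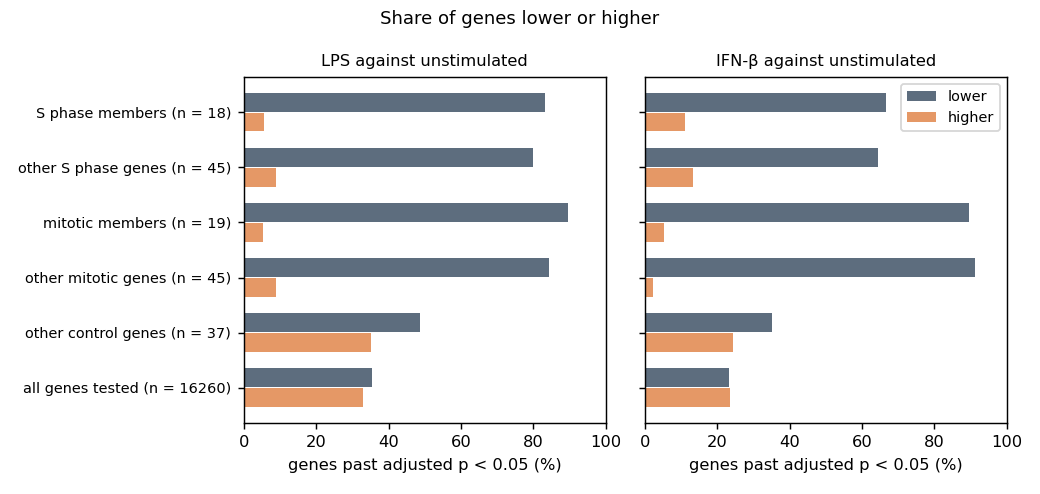
Share of genes past an adjusted p of 0.05 that were lower (dark bars) or higher (orange bars) than unstimulated, with LPS on the left and IFN-β on the right, in percent on an axis from 0 to 100, for the S phase and mitotic genes, the 3 lists of other genes and all 16260 genes tested. Lower genes are the majority in the S phase and mitotic sets and lists, while all genes tested hold similar shares of both directions. Of the 37 control genes, 18 were lower and 13 higher with LPS, and 13 were lower and 9 higher with IFN-β. With scaling by library size alone the shares of all genes shift towards lower.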

How the data were processed

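RNA-seq was performed on 9 libraries of wild-type DCs, rRNA-depleted with a KAPA RNA HyperPrep kit. The authors trimmed reads with Trim Galore (0.6.0 in the submitters' processing notes), aligned them to mm10 (GRCm38) with STAR (2.7.8a in those notes) and counted them per GENCODE gene in STAR. The deposited values are these raw counts, 1 column a library. The strand setting of the counting is not given in the sources used here.

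Counts were tested in R 4.3.3 with edgeR 4.0.16 (limma 3.58.1): genes with few counts were removed by filterByExpr, leaving 16260 of 55471, TMM factors were computed, and 1 quasi-likelihood model over the 3 groups compared each stimulus with no stimulation and IFN-β with LPS. P-values were adjusted by Benjamini-Hochberg over all genes tested, and the standard error is the log2 fold change divided by the square root of F. Medians per library used log2(CPM + 0.5). Tables and plots were made in Python 3.11.15 with pandas 2.3.3 and matplotlib 3.10.9. The fit was checked on simulated data in which 200 genes changed between LPS and unstimulated (15509 genes tested): it recovered 33.3%, 83.6% and 98.5% of changes of 0.5, 1 and 2 on the log2 scale and called 11 unchanged genes. In the data 68.2% of genes passed with LPS, so these rates need not carry over. No pair of libraries of a group agreed within sampling noise (chi-square per degree of freedom 13.5 to 37.1). Letters A, B and C were taken to pair libraries, because all 9 same-letter pairs of libraries correlated in their deviations from group means (r from 0.13 to 0.55). This comes from the data, and the labels do not state it.

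The 51 genes, their roles and all lists (other S phase, other mitotic, other control and p53 target genes, and markers of stimulation, DCs, macrophages, progenitors, neutrophils, mast cells and basophils, B cells, T and NK cells, and erythroid cells) were chosen with earlier results of these data known. Of 46 other mitotic and 38 other control symbols, 45 and 37 were found in the table. All 51 genes could be named. Values in every library were given for the genes with the largest change in each role and for 12 genes set by function, other pathway genes were the 3 of each list with the largest change under each stimulus, and promoters were those with the group's word, calls under both stimuli and the smallest adjusted p with LPS. Windows that hold an annotated exon of a gene were not printed, a choice made after seeing them. For genes with 2 starts the farthest 5′ was used. Gene positions and shared exon bases are from GENCODE M21 (GRCm38), in which 55144 of 55471 identifiers were found. Of the 51 genes, 12 share at least 5% of their exon bases. Those whose share is not given with their values are *E2f8* (11.2%), *Cdkn1a* (7.68%), *Plk1* (7.09%) and *Cdc45* (5.96%). Alternatives were DESeq2 1.42.0, scaling by library size alone, upper-quartile factors, no filter, at least 10 counts in every library, the letter as a block, only the compared groups, other thresholds, and each library left out in turn.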

Additional observations from a re-analysis of the deposited data

How the results depend on the processing

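Of the single-gene results under the alternatives, 2331 kept direction and side of the threshold, 50 lost the call, 42 gained one, and 6 changed sign where the main value or the alternative passed the test. Another 19 values, of 9 results, changed sign with no call on either side, 10 of them with a library left out and 6 with scaling by library size alone, and the direction of every median over S phase or mitotic genes held. The 6 sign changes with a call all came with scaling by library size alone, which moved the median of all genes by -0.58 with LPS, -0.31 with IFN-β and 0.27 between the stimuli: *Gins2* (-0.33), *Cdk6* (-0.26), *Cdkn1b* (-0.21) and *Mki67* (-0.56) with LPS, *E2f8* (-0.038) with IFN-β and *Tpx2* (0.0059) between the stimuli. Of all genes called, the share higher moved from 48.1% to 21.9% with LPS, from 50.3% to 22.3% with IFN-β and from 52.5% to 77.9% between them. Of the 51 genes, 3 were then higher with LPS and 4 with IFN-β, and 3 were lower with IFN-β than with LPS. S phase medians were -2.01 with LPS, -0.88 with IFN-β and 1.12 between the stimuli, and mitotic medians -2.93, -1.14 and 1.77. Relative to the shift these medians lay close to those with TMM, as they must where scaling shifts all genes nearly alike.

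Asking also for a change of 1 or more on the log2 scale, in either direction, left fewer calls, as a stricter call does by construction. With LPS 2 genes were then higher, and 32 of the 51 had a log2 fold change of -1 or lower, against 17.6% of all genes tested. With IFN-β 5 were changed (2 higher, 3 lower), and between the stimuli 27 (25 higher, 2 lower). An adjusted p under 0.01 left 5 genes higher with IFN-β. For the other counts at these thresholds the share of all genes was not computed. The mitotic median with LPS was -2.44 with upper-quartile factors. Between the stimuli it was 1.46 with DESeq2, 1.51 with upper-quartile factors or no filter and 1.52 in the fit of the compared groups alone. Without genes that share exon bases (an alternative chosen after seeing the data) it was -2.22 with LPS and 1.46 between the stimuli, and the S phase median between the stimuli was 0.78. The cause of these moves was not tested.

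With each library left out in turn, 42 to 47 of the 51 genes changed with LPS (4 to 6 higher, 36 to 41 lower), 38 to 42 with IFN-β (5 to 8 higher, 33 to 34 lower) and 45 to 46 between the stimuli (40 to 42 higher, 4 to 5 lower). Of the 16503 to 16656 genes tested in these fits, 10455 to 11234 changed with LPS, 6467 to 7742 with IFN-β and 6858 to 8049 between the stimuli. The S phase median ran from -1.49 to -1.35 with LPS, -0.66 to -0.49 with IFN-β and 0.76 to 0.88 between them. The mitotic median ran from -2.38 to -2.25, -0.91 to -0.78 and 1.37 to 1.54. The gap between them ran from 0.84 to 0.99, 0.16 to 0.32 and -0.75 to -0.53. The call of *Gins1* between the stimuli was lost without LPS library C (edgeR adjusted p = 0.0512) or IFN-β library A (0.0518).

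With the letter as a replicate block, 48 of the 51 genes changed with LPS, 43 with IFN-β and 48 between the stimuli. The block raised the calls over all 16260 genes tested too. They numbered 11950 with LPS, 9151 with IFN-β and 9425 between the stimuli, against 11084, 7631 and 7989 without it. The 6 calls gained are given with their genes, and the block changed no other call of the 51. In simulated data with the LPS comparison's depth 33.3% of changes of 0.5 on the log2 scale were found. Far fewer genes changed there than in the data, so this rate need not carry over.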

Other observations

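Some genes of replication and division outside the 51 rose, against the direction of their lists. They were chosen after their values were seen. *Rfc3*, a subunit of the clamp loader, was at 8.97, 8.56 and 8.17 CPM in the unstimulated libraries, 21.2, 18.4 and 15.4 CPM with LPS and 15.2, 13.7 and 13.9 CPM with IFN-β. Its log2 fold change was 1.10 ± 0.11 (adjusted p = 7.69e-06) with LPS and 0.74 ± 0.11 (adjusted p = 0.000389) with IFN-β in edgeR's quasi-likelihood test. *Mcmbp*, which binds the MCM subunits, was at 83.03, 79.2 and 79.6 CPM in the unstimulated libraries, 227, 192 and 187 CPM with LPS and 148, 128 and 143 CPM with IFN-β. It rose by 1.33 ± 0.09 (adjusted p = 2.60e-07) and 0.79 ± 0.09 (adjusted p = 4.58e-05). *Ckap2l*, a spindle protein, was at 7.98, 9.66 and 9.59 CPM in the unstimulated libraries, 32.5, 38.1 and 45.3 CPM with LPS and 5.79, 8.10 and 6.88 CPM with IFN-β, and rose with LPS by 2.09 ± 0.15 (adjusted p = 4.55e-07), with -0.39 for IFN-β (adjusted p = 0.0544). *Cks2*, a small partner of the CDKs, rose with LPS by 0.76 ± 0.13 (adjusted p = 0.000372).

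Some genes that hold cells out of division rose, and only such genes are detailed here. Of the 37 control genes, 18 were lower and 13 higher with LPS, and 13 were lower and 9 higher with IFN-β. Inhibitory genes also fell, such as *Cdkn2c* (-2.32 with LPS, -0.73 with IFN-β) and the repressor *E2f6* (-1.14 with IFN-β). *Rbl1*, the retinoblastoma relative p107, was at 35.8, 33.9 and 34.2 CPM in the unstimulated libraries. This gene was at 143, 103 and 99.8 CPM with LPS and 87.7, 64.6 and 70.6 CPM with IFN-β. It rose by 1.73 ± 0.15 (adjusted p = 1.71e-06) with LPS and 1.10 ± 0.15 (adjusted p = 0.000154) with IFN-β. *Cdkn2b*, which encodes the CDK inhibitor p15, rose by 1.32 ± 0.23 (adjusted p = 0.000484) with LPS, and *Ccng2*, a cyclin of resting cells, by 1.68 ± 0.20 (adjusted p = 1.95e-05) with LPS and 0.99 ± 0.19 (adjusted p = 0.00184) with IFN-β. *E2f5*, a repressive E2F factor, rose by 1.97 ± 0.17 (adjusted p = 1.90e-06) with LPS. *Mdm2*, which degrades p53 and is itself a p53 target, is not one of the genes that hold cells out of division. It rose by 1.43 ± 0.08 (adjusted p = 1.22e-07) with LPS and 0.58 ± 0.08 (adjusted p = 0.000266) with IFN-β.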
